A study of Mus musculus with 12 samples.

Results

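The imprinted growth genes described here are 10 of the 37583 genes in the deposited table: the long non-coding RNAs Meg3, Rian and H19, and the protein-coding genes Dlk1, Igf2, Cdkn1c, Peg3, Plagl1, Mest and Ndn. They were chosen by name, around Meg3, which had been noticed for its measured values at Day7 versus Day1, so for that pair of times the members' values are given as a description and no test is drawn from them. All 10 names were found in the table. RNA came from the blood of wild type mice that had a burn/tenotomy injury, a skin burn together with a cut tendon, which is used to provoke heterotopic ossification, the growth of bone in soft tissue. Blood was passed over a microfluidic iChip, and the enriched cells, labelled as circulating mesenchymal progenitor cells (cMPCs) with blood cells, gave total RNA libraries at 6h, Day1 and Day7, with 4 libraries at each time. All 12 libraries share the genotype and the injury, and uninjured mice were not analysed here. The labels and design text give no strain, sex or age, and do not say whether the libraries of one time came from separate animals, so p-values measure only the spread between these libraries, which may be technical.

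Genomic imprinting silences one parental copy of a gene through DNA methylation marks laid down in the germ line, so that only the maternal or only the paternal copy is read. Meg3, Rian, H19 and Cdkn1c are expressed from the maternal chromosome, whereas Dlk1, Igf2, Peg3, Plagl1, Mest and Ndn are expressed from the paternal one. Many paternally expressed members promote growth in the embryo and many maternally expressed ones restrain it, and the group as a whole is strongly expressed in fetal tissues and declines after birth, with lasting expression in some stromal, endocrine and progenitor cells. Meg3, Rian and Dlk1 lie in one cluster on chromosome 12, and H19, Igf2 and Cdkn1c lie near one another on chromosome 7. Peg3 and Ndn lie elsewhere on chromosome 7, Plagl1 on chromosome 10 and Mest on chromosome 6. The libraries hold RNA and not alleles, so which parental copy was read was not measured.

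The stretches before the start sites of 4 members are shown. Meg3 and Ndn had Day7 values below all earlier ones, and Mest had deposited Day7 values above all Day1 values. The share of all tested genes whose times separate in this way was not counted. Here and below, such separation is therefore a description and is not read as particular to the members. Peg3, whose values overlapped between all times, was added only because its start region shares a motif with Meg3. Each stretch is the 250 bases before a start site on the gene's own strand, 5′ to 3′, from the RefSeq table of GRCm38.p6, a later build than the mm9 of the deposited files. Capitals mark every match to TGACGTCA, the cyclic AMP response element (CRE), to TATAAA, to CCAAT or to GGGGCCCC, a motif bound by Plagl1, on either strand. The windows are chr12:109540746-109540995 on the plus strand for Meg3, chr7:6730420-6730669 on the minus strand for Peg3, chr7:62348027-62348276 on the plus strand for Ndn and chr6:30737800-30738049 on the plus strand for Mest.
Meg3: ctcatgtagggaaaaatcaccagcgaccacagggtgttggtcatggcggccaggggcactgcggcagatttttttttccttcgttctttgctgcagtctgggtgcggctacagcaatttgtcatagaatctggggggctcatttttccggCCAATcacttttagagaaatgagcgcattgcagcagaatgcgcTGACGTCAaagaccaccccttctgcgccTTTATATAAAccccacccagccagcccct
Peg3: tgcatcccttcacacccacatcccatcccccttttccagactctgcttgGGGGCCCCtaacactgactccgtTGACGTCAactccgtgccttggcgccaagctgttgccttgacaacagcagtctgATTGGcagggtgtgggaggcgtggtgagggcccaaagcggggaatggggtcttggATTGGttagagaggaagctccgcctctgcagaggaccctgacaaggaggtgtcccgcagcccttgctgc
Ndn: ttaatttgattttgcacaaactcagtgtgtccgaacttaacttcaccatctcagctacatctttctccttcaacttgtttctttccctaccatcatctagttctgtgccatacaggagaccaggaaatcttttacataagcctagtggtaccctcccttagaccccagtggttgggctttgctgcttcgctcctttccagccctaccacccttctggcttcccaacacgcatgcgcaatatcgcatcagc
Mest: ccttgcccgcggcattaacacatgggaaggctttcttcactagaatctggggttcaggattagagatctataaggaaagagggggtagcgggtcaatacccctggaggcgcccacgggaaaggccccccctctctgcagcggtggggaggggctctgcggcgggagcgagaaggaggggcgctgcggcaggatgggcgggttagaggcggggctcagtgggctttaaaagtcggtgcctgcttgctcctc

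The Meg3 window holds TGACGTCA, CCAAT and TATAAA, the last inside a longer run that also reads as a match on the opposite strand. The Peg3 window holds TGACGTCA, GGGGCCCC and CCAAT, written on this strand as ATTGG, and the Ndn and Mest windows hold none of the 4 motifs. Of the 32851 windows of the same length in the table, 1.55% hold TGACGTCA, 0.889% hold GGGGCCCC, 12.4% hold TATAAA and 33.8% hold CCAAT. Of the 10 members, 8 have a start site in that table, and these 8 have 14 start sites in all. TGACGTCA was found before a start site of Meg3 and of Peg3 and of no other matched member, and the second listed start of Meg3 holds none of the motifs. H19 and Cdkn1c have no entry. A match describes the letters only and says nothing of whether a factor was bound.

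Meg3, a long non-coding RNA with growth-restraining activity, had reads in every 6h and Day1 library and was nearly gone at Day7. The deposited values are reads scaled by the authors, by a step that is not given in the sources used here. For Meg3 they were 45.4, 16.3, 40.8 and 24.6 in the 6h libraries, 76.6, 79.6, 90.3 and 42.2 in the Day1 libraries, and 1.44, 0.957, 0 and 1.33 in the Day7 libraries. Every Day7 library therefore lay below every 6h and every Day1 library, while the 6h and Day1 ranges overlapped in a single pair of libraries, 6h replicate 1 (45.4) and Day1 replicate 4 (42.2). As plain CPM (recovered reads over all reads of the library), Meg3 ranged over 8.43 to 40.0 (6h), 112 to 226 (Day1) and 0 to 2.00 (Day7), and on that scale the 6h and Day1 libraries did not overlap. In reads, Meg3 had 866 over the 6h libraries, 5429 over the Day1 libraries and 21, 5, 0 and 4 in the Day7 libraries. Day7 replicate 3, at 0 reads, has a floor of 1.85 deposited units, the value of 3 reads, which is the level that a count of 0 still allows there. The floor and other limits of this kind cover counting error only.

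Relative to 6h, Meg3 fell at Day7 by 4.06 on the log2(value + 1) scale (SE 0.74; limma adjusted p = 0.0124), with a mean of 0.933 ± 0.656 at Day7 and of 31.8 ± 13.6 at 6h (SD, n = 4 each). The 95% interval of this difference ran from -5.58 to -2.53, and the difference was -4.19 when taken relative to the median of all tested genes, which was 0.13. This comparison shares its Day7 libraries with the one that drew attention to Meg3, so its p does not stand as independent support. Leaving out 6h replicate 3 took the call away (adjusted p = 0.0773), as did a pseudocount of 4 (-2.78, adjusted p = 0.0513) and values scaled to all reads (-3.98, adjusted p = 0.188). At Day1 the Meg3 mean was 72.2 ± 20.9, and its difference from 6h was 1.21 (SE 0.74; limma adjusted p = 0.540), with an interval from -0.32 to 2.74. That difference was 2.54 (adjusted p = 0.0526) with values scaled to all reads and 2.09 (adjusted p = 0.122) scaled to reads outside haemoglobin, where the medians of all genes were 1.55 and 1.37, against 0.52 in the deposited scaling. In bulk RNA such as this, fewer cells of a type and less RNA per cell cannot be told apart. At Day7 versus Day1 the difference was -5.27 (SE 0.74), the value on which Meg3 was noticed. Day1 versus 6h shares its Day1 libraries with that comparison, so its Meg3 difference is not independent of the choice either.

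**Figure D1:**
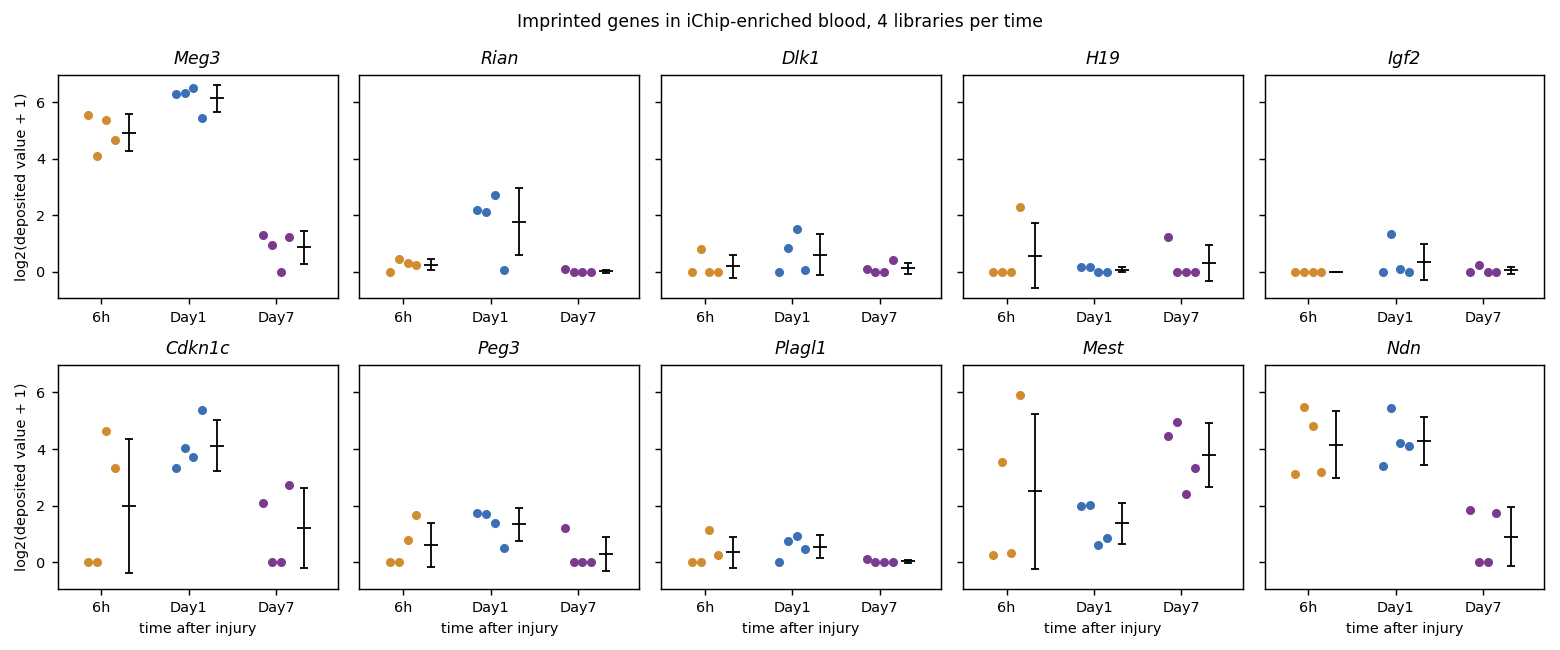
Deposited values of the 10 imprinted members on the log2(value + 1) axis (vertical), by time after injury (horizontal); each point is 1 library and the bars are the mean and SD of 4 libraries. The Day7 libraries of Meg3 (0 to 1.44) and Ndn (0 to 2.61) lie below all their 6h and Day1 libraries, and Rian, Dlk1, H19, Igf2 and Plagl1 stay near 0 in most libraries.

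The neighbours of Meg3 on chromosome 12 had far fewer reads. Per kilobase, Rian averaged 0.0308, 0.486 and 0.00265 deposited units at 6h, Day1 and Day7, where Meg3 averaged 1.96, 4.45 and 0.0575. Rian, the host transcript of a large array of small nucleolar RNAs, had 0, 1, 1 and 3 reads in the 6h libraries, 29, 108, 74 and 1 in the Day1 libraries, and 1, 0, 0 and 0 in the Day7 libraries. Mirg, a further maternally expressed transcript that hosts microRNAs and is not a member, had reads of 0, 0, 4 and 2 in the 6h libraries, 16, 88, 39 and 87 in the Day1 libraries, and 0 in each Day7 library. Most reads of both transcripts were found at Day1, except for Rian in Day1 replicate 4, where 1 Rian read stood beside 87 Mirg reads and 1083 Meg3 reads.

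Per 100 Meg3 reads, summed over a group, the Rian count was 0.577 (6h), 3.90 (Day1) and 3.33 (Day7), and the Mirg count was 0.693, 4.24 and 0. The Day7 ratios rest on 30 Meg3 reads and a single Rian read. Within the Day1 libraries, the Rian ratio was 4.68, 4.26, 6.21 and 0.0923, and the Mirg ratio was 2.58, 3.47, 3.27 and 8.03, so the first 3 libraries were alike and replicate 4 differed for both transcripts. Rian averaged 3.16 ± 2.31 at Day1 and 0.200 ± 0.157 at 6h (SD, n = 4 each). Its mean log2(value + 1) was 1.78 at Day1 and 0.25 at 6h, a difference of 1.52 (exact two-sided permutation test, p = 0.114; 0.714 adjusted over 10 such tests). The smallest p that 4 libraries against 4 allow is 0.0286, so a single member could not pass after adjustment over the 10 tests. For all members compared in this way, not passing is no evidence of no change.

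The paternally expressed genes of the cluster had few reads. Dlk1, a transmembrane protein related to Notch ligands that holds back adipocyte differentiation, had 0, 2, 0 and 0 reads in the 6h libraries, 0, 26, 25 and 1 in the Day1 libraries, and 1, 0, 0 and 1 in the Day7 libraries. Its Day1 mean was 0.688 ± 0.889 and its 6h mean 0.189 ± 0.379 (SD, n = 4 each; exact permutation p = 0.257, 0.857 adjusted). Rtl1, a retrotransposon-derived gene of the placenta, had 21 reads over the Day1 libraries, 16 of them in replicate 1, and Dio3, a thyroid hormone deiodinase, had 0 in all 12. Over the 12 libraries the 3 long non-coding RNAs held 6779 reads and the 2 coding genes Dlk1 and Rtl1 held 79, neither scaled to length. Of the 4 small nucleolar RNA genes listed there, 2 had reads (33 in all), as did 2 of 50 microRNA genes (4 reads, all in Day1 replicate 3). Rtl1 has a maternal antisense transcript, and whether counting used strand is not given in the sources used here, so its reads may come from either.

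**Figure D2:**
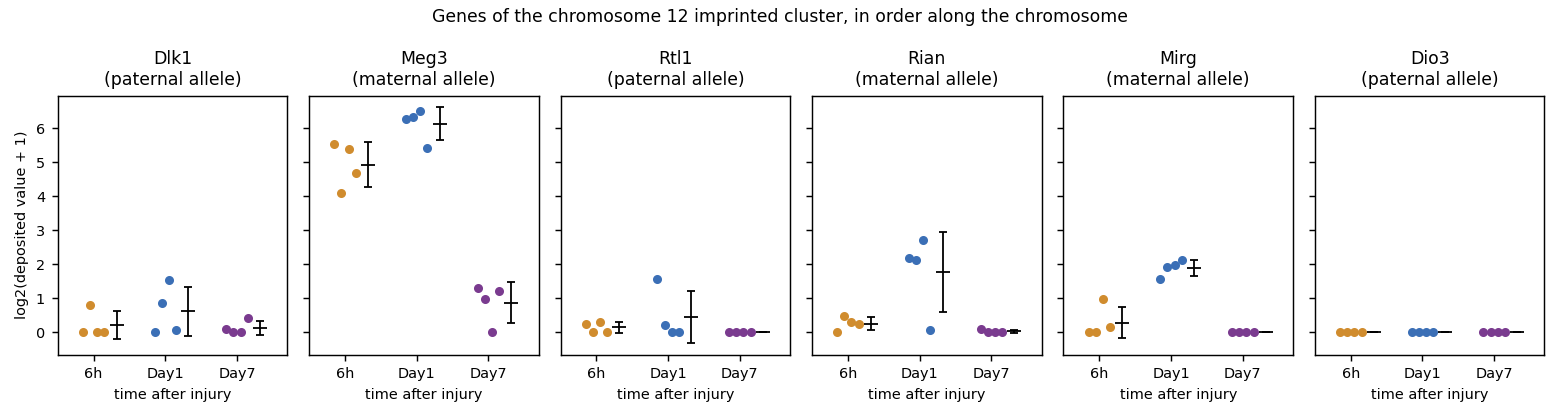
Values of 6 genes of the chromosome 12 cluster, from left to right in their order along the chromosome, as log2(deposited value + 1) by time after injury; points are libraries, bars the mean and SD of 4. Meg3 is at 0 to 1.44 in the Day7 libraries and far higher before, Rian and Mirg appear mainly at Day1, and Dio3 is at 0 throughout.

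The chromosome 7 pair H19 and Igf2 was seen in single libraries rather than at a time. H19, a non-coding RNA that gives rise to a microRNA restraining growth, had 65 reads in 6h replicate 4 (3.90 deposited units) and 20 in Day7 replicate 1 (1.38 units), against 5 in the whole Day1 group and 0 in the other libraries. Igf2, insulin-like growth factor 2, had 48 reads in Day1 replicate 2 (1.51 units), 1 in Day1 replicate 3, 1 in Day7 replicate 2 and 0 elsewhere. Day1 replicate 2 was the only library with reads of both genes, 4 of H19 and 48 of Igf2. Neither passed the exact permutation test, where Igf2 gave p = 0.429 and H19 p = 1 for Day1 versus 6h (0.857 and 1 adjusted), and both gave p = 1 for Day7 versus 6h. For Igf2 the latter p was fixed in advance, since only Day7 replicate 2 had a read at those times. With reads in so few libraries the test could hardly show a difference. Over the Day1 group Igf2 had 49 reads against 0 at 6h, at least 5.97-fold higher with 3 reads as the floor of the 6h group, but 48 of the 49 came from Day1 replicate 2.

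Cdkn1c, an inhibitor of cyclin-dependent kinases that holds cells out of division, was present in every Day1 library and patchy at the other times. Its values were 0, 0, 24.1 and 8.99 at 6h, 9.15, 15.4, 12.1 and 41.1 at Day1, and 3.30, 0, 0 and 5.65 at Day7. The Day7 and Day1 ranges did not overlap, and 4 of the other 8 libraries had no read of it. The 6h group splits into libraries with no read and libraries at Day1 levels, so its SD (11.4) exceeds its mean (8.28). The Day1 mean of 19.4 ± 14.7 was 2.13 above 6h in log2 units (SE 1.04; limma adjusted p = 0.447), and Day7 was 0.78 below 6h (SE 1.04; adjusted p = 0.718). The Day1 difference was 3.17 scaled to all reads (adjusted p = 0.0543), 3.45 scaled to reads outside haemoglobin and 1.001 in edgeR. The Day7 difference from 6h was -2.54 in DESeq2 and -2.02 in edgeR. It was 0.10 without 6h replicate 3 and 0.58 in a fit with a term for Y-linked reads. At Day7 versus Day1 the difference was -2.91 (SE 1.04).

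Ndn, which encodes necdin, a growth-suppressing protein of neurons and progenitor cells, was low at Day7, as Meg3 was, after 6h and Day1 ranges that overlapped. It was 7.65, 44.3, 27.3 and 8.09 at 6h, 9.64, 42.3, 17.5 and 16.1 at Day1, and 2.61, 0, 0 and 2.33 at Day7. All Day7 libraries lay below all 6h and Day1 libraries, which overlapped each other across almost their whole range. The Day7 mean was 1.24 ± 1.43 and the 6h mean 21.8 ± 17.6 (SD, n = 4 each), a log2 difference of -3.26 (SE 0.85) that did not pass the threshold (limma adjusted p = 0.0585). It passed without 6h replicate 1 (adjusted p = 0.0447), without 6h replicate 4 (0.0171), with DESeq2 on the recovered reads (-4.72, adjusted p = 0.000683) and among genes with a mean of at least 10 (0.0478). In the other 20 alternatives it was not called, among them edgeR (adjusted p = 0.137). The limma adjusted p was 0.344 scaled to all reads, 0.204 without the filter and 0.197 without 6h replicate 3. At Day1 the mean was 21.4 ± 14.4, a difference of 0.13 from 6h (SE 0.85; adjusted p = 0.971). The value depended on the scaling and the tool, with 1.45 scaled to all reads, 0.997 scaled to reads outside haemoglobin, -0.29 in edgeR and -0.33 in DESeq2, and no setting gave a call. At Day7 versus Day1 the difference was -3.39 (SE 0.85).

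Peg3 and Plagl1, zinc finger proteins that act in growth and apoptosis, were low throughout. Peg3 had 0, 0, 0.724 and 2.16 deposited units at 6h, 2.35, 2.26, 1.59 and 0.428 at Day1, and 1.31, 0, 0 and 0 at Day7. It was found in every Day1 library and in 3 of the other 8. Differences from 6h were 0.72 at Day1 (SE 0.55; limma adjusted p = 0.640), or 1.38 scaled to all reads, and -0.31 at Day7 (SE 0.55; adjusted p = 0.798), or -1.19 in DESeq2. Plagl1, a transcription factor known in mouse to regulate several other imprinted genes, had 0, 0, 5 and 3 reads in the 6h libraries, 0, 22, 12 and 10 in the Day1 libraries, and 1, 0, 0 and 0 in the Day7 libraries. It did not pass the exact permutation test (Day1 versus 6h p = 0.571, Day7 versus 6h p = 0.429, or 0.952 and 0.857 adjusted), which is no evidence of no change.

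Mest, an enzyme-like protein of the mesoderm, was the one tested member whose limma differences of Day7 from both earlier times were positive. Its values were 0.187, 10.6, 0.241 and 59.2 at 6h, 2.97, 3.01, 0.531 and 0.817 at Day1, and 20.8, 29.9, 4.32 and 8.98 at Day7. In these deposited units all Day7 libraries lay above all Day1 libraries, and both overlapped 6h, where 6h replicate 4 alone held 987 of the 1017 reads. Mest averaged 16.0 ± 11.6 at Day7 and 17.5 ± 28.2 at 6h (SD, n = 4 each), a log2 difference of 1.28 (SE 1.06; limma adjusted p = 0.543) that became negative in edgeR (-0.061) and DESeq2 (-0.31). Day1, at 1.83 ± 1.34, differed from 6h by -1.13 (SE 1.06; adjusted p = 0.718), by -0.29 scaled to all reads, by -3.32 in edgeR and by 0.0022 without 6h replicate 4. At Day7 versus Day1 the difference was 2.41 (SE 1.06), or 0.90 scaled to all reads and 1.17 scaled to reads outside haemoglobin. As plain CPM, Mest was 28.8, 18.1, 0.770 and 2.97 in the Day7 libraries, against 4.56, 8.56, 0.944 and 2.17 in the Day1 libraries, so on that scale the Day7 and Day1 ranges overlapped. Copg2, a coat protein gene whose transcript meets the end of Mest on the opposite strand, averaged 0.845 ± 1.53 at 6h, 1.25 ± 1.30 at Day1 and 12.46 ± 15.2 at Day7 (SD, n = 4 each), and without strand the reads of the overlap cannot be told apart.

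Per kilobase of the length given in the table, the order of the levels changed with time. At 6h Ndn (13.2 ± 10.6 per kb) was followed by Mest (4.93 ± 7.92), Cdkn1c (4.30 ± 5.91) and Meg3 (1.96 ± 0.840), and each step is within the larger SD of its pair. At Day1 the order was Ndn (12.96 ± 8.70), Cdkn1c (10.1 ± 7.61), Meg3 (4.45 ± 1.29), Mest (0.515 ± 0.377) and Rian (0.486 ± 0.356), with a gap wider than the SDs between Meg3 and Mest. At Day7 Mest led (4.50 ± 3.25), ahead of Cdkn1c (1.16 ± 1.43), Ndn (0.748 ± 0.867), H19 (0.119 ± 0.238) and then Meg3 (0.0575 ± 0.0404), and below Mest each step is within the larger SD (SD, n = 4 for each). The members not listed were lower at each time, with 0.337 per kb at most (H19 at 6h).

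A gene was tested when it reached a deposited value of 1 in at least 4 libraries, and 5 of the 10 members did: Meg3, Cdkn1c, Peg3, Mest and Ndn. Peg3 was just inside this filter with 5 libraries, and Rian was just outside it with 3. For Day1 versus 6h, 0 of the 5 were called in limma (adjusted p under 0.05), where 0.169% of all 11211 tested genes were called. At an unadjusted p under 0.05 limma had 0 members and edgeR 1, and neither edgeR nor DESeq2 called a member after adjustment. For Day7 versus 6h, 1 of the 5 was called (Meg3, lower), with 0.883% of all tested genes called. edgeR called 1 member and DESeq2 called 2. For Day7 versus Day1, 2 of the 5 were past the same threshold (Meg3 and Ndn, both lower), where 5.78% of all tested genes were called, and since that comparison guided the choice nothing is read from the count. Both comparisons with Day7 share the Day7 libraries, both comparisons with 6h share the 6h libraries, and both comparisons with Day1 share the Day1 libraries. The Meg3 call in Day7 versus 6h is therefore not independent of how Meg3 was chosen. The same holds for the Meg3 difference in Day1 versus 6h.

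**Figure D3:**
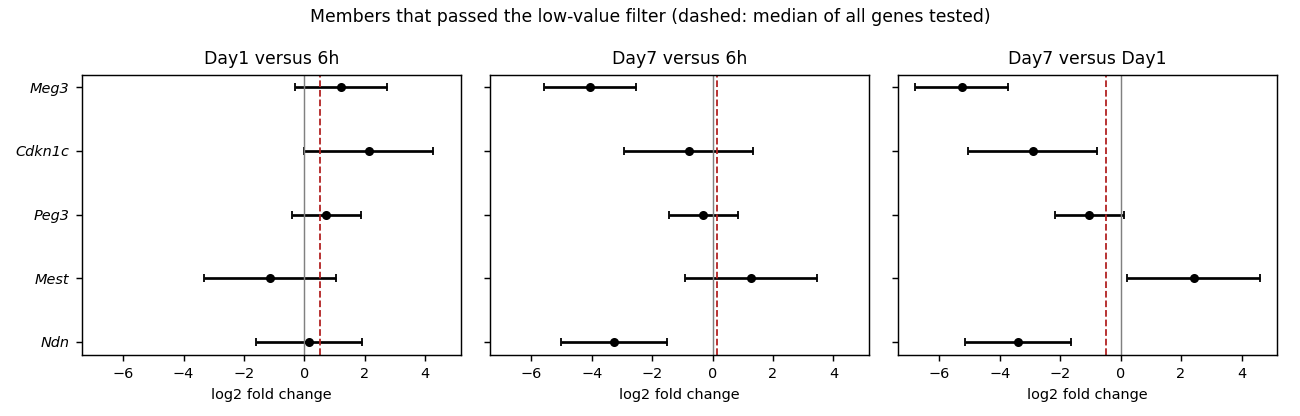
Log2 fold changes of the 5 tested members with 95% intervals from limma (horizontal axis) in 3 comparisons, with the later time over the earlier one and the median of all tested genes as a dashed line. In Day7 versus 6h the intervals of Meg3 (-5.58 to -2.53) and Ndn lie wholly below 0; Day7 versus Day1 is a description, since Meg3 was noticed on it.

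Other imprinted genes show how far the members' pattern was shared. The lists below, like the members, were drawn up with earlier results of these data known. Of 32 genes that neighbour the members in their clusters, 26 were in the table and 12 were tested. In Day1 versus 6h and in Day7 versus 6h, limma called 0 of the 12 (4 and 2 at an unadjusted p under 0.05), and edgeR and DESeq2 called 0. Their median log2 differences were 1.08 and 0.49, against 0.52 and 0.13 over all genes tested. In Day7 versus Day1, 2 fell in limma and 0 in edgeR: Mirg, with 0 reads at Day7 and 230 at Day1 (at least 23.7-fold lower, 3 reads being the floor over the group; limma adjusted p = 0.0321), and Osbpl5, a lipid transfer protein near Cdkn1c (-2.87, adjusted p = 0.0403). The Osbpl5 call was lost with a pseudocount of 0.25 and with the replicate block, was kept in 5 of 12 fits with 1 library left out and was lost without Day1 replicate 2, 3 or 4 or any Day7 library. That of Mirg was kept in 5 of the 8 such fits in which it was tested, and lost without Day7 replicate 2, 3 or 4. Mirg passed the filter through the 4 Day1 libraries alone (1.98 to 3.39, with 0.966 at most elsewhere), so it was tested because it was high in one of the groups compared, and its p does not stand as support. The list's median there was -0.19 against -0.48 over all genes tested, of which limma called 5.78% in that comparison.

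Among 27 tested genes from 39 other imprinted loci, Grb10 was low at Day7 as Meg3 was. Grb10, an adaptor protein that dampens insulin and insulin-like growth factor receptor signalling, had 18.7, 2.27, 27.8 and 28.9 at 6h, 22.9, 27.3, 25.3 and 28.3 at Day1, and 0.963, 0, 0 and 0.665 at Day7. Its Day7 libraries were all below the others, and 6h replicate 2 stood out as low within its own group. Grb10 fell at Day7 relative to 6h by 3.51 (SE 0.83; limma adjusted p = 0.0399), a call that was kept in 2 of the 12 fits with 1 library left out (without 6h replicate 2 or 6h replicate 4). That call held in 7 of 12 other settings and was lost among others with a pseudocount of 4 and scaled to all reads. It fell relative to Day1 by 4.32 (SE 0.83; adjusted p = 0.0135), kept in 9 of 12 such fits and lost without Day1 replicate 2, 3 or 4. Grb10 was the only gene of this list called in Day7 versus 6h by limma, where 0.883% of all tested genes were called. In Day1 versus 6h limma called 0 (5 at an unadjusted p under 0.05), as did edgeR and DESeq2.

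In Day7 versus Day1, limma called 4 of the 27 and edgeR 0, where limma called 5.78% of all tested genes. Besides Grb10, the receptor gene Igf2r, which clears insulin-like growth factor 2, fell (-2.92, SE 0.82; limma adjusted p = 0.0410). Cobl, an actin regulator next to Grb10, had 0 reads at Day7 and 1892 at Day1, at least 195-fold lower (adjusted p = 0.0288). Without the Day1 libraries, neither Cobl nor Igf2r would have passed the filter. Like Mirg, both were therefore tested because they were high in one of the groups compared, and their p-values do not stand as support. Gnas, the stimulatory G protein alpha subunit, rose (2.601, SE 0.76; adjusted p = 0.0453), with 55.5, 88.0, 234 and 77.8 at Day7 and 16.4, 7.66, 20.2 and 20.5 at Day1. The calls of Igf2r, Cobl and Gnas were kept in 6, 6 and 5 of 12 fits without 1 library, and each was lost without Day1 replicate 2, 3 or 4 and without Day7 replicate 2, 3 or 4. That of Gnas was lost without Day1 replicate 1 as well, and it held in 4 of 12 other settings, being lost among others under both other scalings, with a pseudocount of 0.25, without the filter and with the replicate block. The list's medians were 0.59, -0.07 and -0.77 for Day1 versus 6h, Day7 versus 6h and Day7 versus Day1, against 0.52, 0.13 and -0.48 over all genes.

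**Figure D4:**
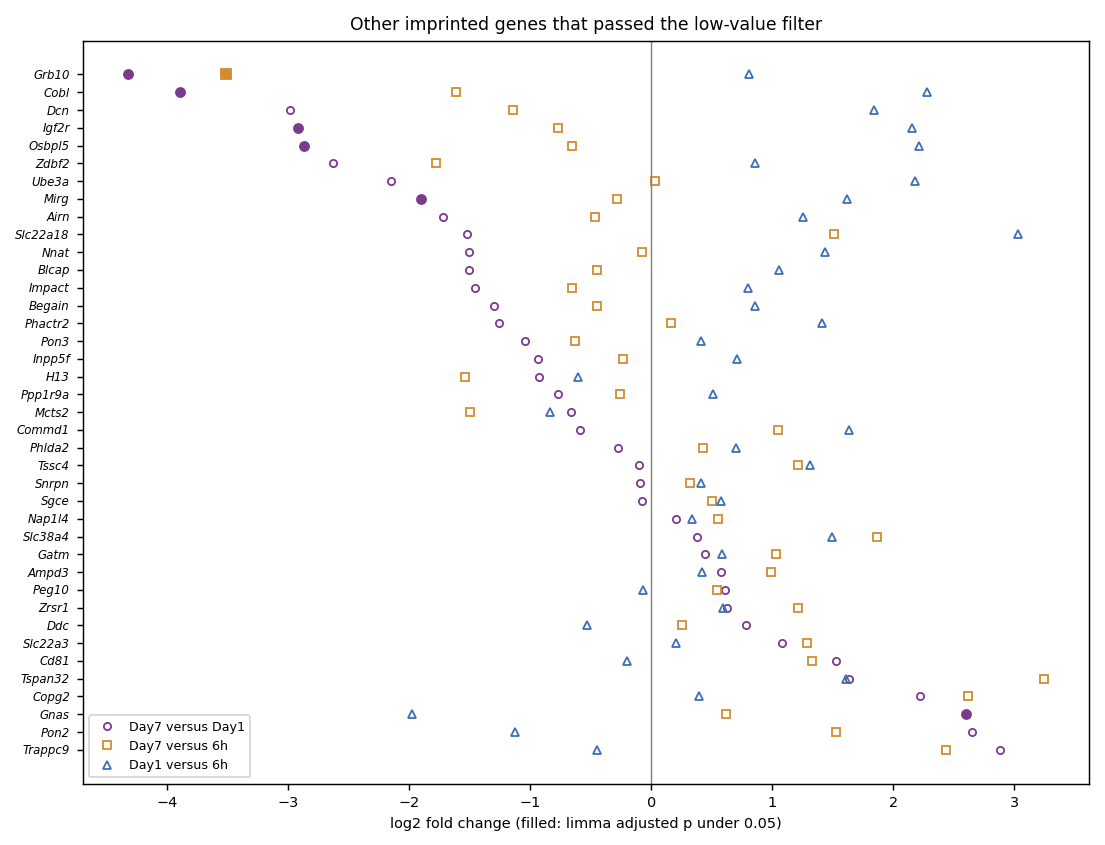
Log2 fold changes (horizontal axis, later time over earlier) of the tested imprinted genes outside the member list, 1 row per gene, sorted by Day7 versus Day1; filled symbols are limma adjusted p under 0.05. Grb10 is at the top with -4.32 and -3.51, Gnas is the one filled symbol on the positive side, and no Day1 versus 6h symbol is filled.

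Genes that act with the members were examined next. The insulin-like growth factor (IGF) axis, which Igf2 feeds, had 15 tested genes of 19, and limma called 0 in Day1 versus 6h and in Day7 versus 6h (5 and 3 at an unadjusted p under 0.05), where edgeR called 0 and DESeq2 0 and 5. In Day7 versus Day1, 3 fell in limma and 0 in edgeR, namely Igf2r as above and the binding proteins Igfbp5 (-5.23, SE 1.41; limma adjusted p = 0.0369) and Igfbp6 (-4.45, SE 1.15; adjusted p = 0.0328). Igfbp6, which prefers Igf2 as its ligand, averaged 99.7 ± 109 at Day7 and 1415 ± 1037 at Day1 (SD, n = 4 each), and Igfbp5 averaged 44.4 ± 67.7 at Day7 and 659 ± 487 at Day1. Both calls were lost without Day1 replicate 2, 3 or 4 and without Day7 replicate 2 or 3. Over all tested genes limma called 5.78% in Day7 versus Day1. The axis medians were 2.07, -0.76 and -1.28 in Day1 versus 6h, Day7 versus 6h and Day7 versus Day1, or 2.16 in the first with Igfbp1, at 0 reads at 6h, set to its bound.

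Of 13 tested cyclin-dependent kinase inhibitors, cyclins and kinases, limma called 0 in Day1 versus 6h and in Day7 versus 6h (0 and 2 at an unadjusted p under 0.05), and edgeR called 0 and DESeq2 0 and 1. In Day7 versus Day1, Cdkn1a, the stress-induced relative of Cdkn1c, fell (-3.88, SE 0.95; limma adjusted p = 0.0288) and the cyclin gene Ccnd3 rose (3.50, SE 0.86; adjusted p = 0.0288), and edgeR called neither. Cdkn1a averaged 15.2 ± 14.5 at Day7 and 168 ± 120 at Day1, and Ccnd3 averaged 429 ± 157 at Day7 and 39.3 ± 19.3 at Day1 (SD, n = 4 each). The Cdkn1a call was lost without Day1 replicate 2, 3 or 4 or Day7 replicate 2 or 3, and the Ccnd3 call without any single Day1 library or Day7 replicate 2, 3 or 4 and under both other scalings. Limma called 5.78% of all tested genes in Day7 versus Day1. Of 13 Notch pathway genes, the receptors and ligands related to Dlk1, 4 were tested and limma called 0 in each comparison (2, 0 and 2 at an unadjusted p under 0.05 in Day1 versus 6h, Day7 versus 6h and Day7 versus Day1), as did edgeR and DESeq2.

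The genes whose values followed each member most closely over the 12 libraries were listed among tested genes with a mean of at least 10. This is a description, since all genes share the same libraries and scaling. For Meg3 the 8 closest were Zfp579, a zinc finger gene (Pearson r of log2 values 0.98), Grb10 (0.95), the basal keratin Krt14 (0.94), 2310021P13Rik (0.94), the differentiation inhibitor Id1 (0.94), the laminin chain Lamb2 (0.94), the receptor kinase Mst1r (0.93) and the transcription factor Maf (0.93). Zfp579 was 34.4, 13.3, 33.6 and 14.2 at 6h, 27.1, 33.3, 55.9 and 40.1 at Day1, and 1.44, 1.34, 0 and 1.66 at Day7, with 6h replicate 2 low in its group and all Day7 libraries lowest, as for Meg3. Ndn was closest to Id1 (0.95), the microtubule protein gene Mtap1b (0.95) and the microtubule tip gene Clip1 (0.95), so that Id1 is named for both Meg3 and Ndn.

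Cdkn1c followed other genes. Its closest were the matrix proteoglycan Bgn (0.98), complement C2 (0.97) and Rspo1, a secreted Wnt enhancer that was also on the mesothelial marker list (0.97). Bgn was 0, 0, 91.5 and 20.8 at 6h, 13.5, 54.5, 21.7 and 89.9 at Day1, and 11.01, 0.766, 0 and 5.65 at Day7, with the same split of the 6h group as Cdkn1c. Peg3 was closest to Afg3l1 (0.91), Ubtf, a factor of ribosomal RNA transcription (0.85), and BC029214 (0.83). Mest was closest to BC026585 (0.92), Gnpda2, an enzyme of amino sugar metabolism (0.89), and Eif4ebp1, a brake on translation initiation (0.89).

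Several properties of the libraries moved with these results, and their part in them was not tested. The libraries held 5098395 to 12379041 reads, haemoglobin genes took 16.1% to 70.3% of them, and 7631 to 16647 genes had a read. The library with most genes, Day1 replicate 2, was also the one with most of the Igf2 reads. Day7 replicate 3, with 7635 genes detected, was the one without Meg3, whereas 6h replicate 1, with 7631, had 243 Meg3 reads. Y-linked genes had reads in 2 of the 6h libraries and 3 of the Day1 libraries and in 0 of the Day7 libraries. Among libraries without Y-linked reads, Meg3 was 45.4 and 16.3 at 6h, 76.6 in the only such Day1 library and 0 to 1.44 at Day7. In a limma fit with a term for whether a library had Y-linked reads, Meg3 was called lower at Day7 than at 6h (-4.04, limma adjusted p = 0.0307). That p rests on the same Day7 libraries and is no independent support either. No Day7 library had Y-linked reads, so the term was estimated from the 6h and Day1 libraries alone. Whether Y-linked reads had a part in the Meg3 difference was not tested. In the same fit 0 genes were called in Day7 versus Day1 (1774 at an unadjusted p under 0.05), so every Day7 versus Day1 call given above was lost there.

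Markers of other cells differed between the times as well. Of 26 mesenchymal and matrix markers, the cells the enrichment was meant for, 23 were tested, their summed value ranged over 654 to 2747 (6h), 645 to 4283 (Day1) and 93.1 to 831 (Day7), and limma called 9 lower in Day7 versus Day1. All 26 had reads in some library. The summed value of mesothelial markers ranged over 69.3 to 2918 (6h), 843 to 3938 (Day1) and 357 to 656 (Day7), with 12 of 16 called lower in Day7 versus Day1. In that comparison limma called 5.78% of all tested genes, in either direction. The pair of 6h libraries without Cdkn1c had mesothelial sums of 895 and 69.3 (replicates 1 and 2), whereas Day1 replicate 1, with a sum of 843, had a Cdkn1c value of 9.15. edgeR called 0 of either list there (12 and 14 at an unadjusted p under 0.05). In Day7 versus 6h, limma and edgeR called 0 of both lists, with 6 mesenchymal and 10 mesothelial genes at an unadjusted limma p under 0.05 and 8 and 13 called by DESeq2, and in Day1 versus 6h all 3 tools called 0 (3 and 5 at an unadjusted limma p under 0.05). The mesenchymal sums of the Day7 libraries were 494, 167, 93.1 and 831, of which the first 3 lay below every 6h and Day1 library, as Meg3 did in all 4.

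Platelet marker sums were high in the Day7 libraries and in 6h replicate 4, and Mest followed them in part. The sums were 3030, 519, 264 and 31255 in the 6h libraries, 1274, 7146, 3528 and 2228 in the Day1 libraries, and 28920, 48755, 35074 and 29852 in the Day7 libraries, and the 6h library at 31255 is replicate 4, with its Mest value of 59.2. Day7 replicate 3, with the second highest platelet sum (35074), had a Mest value of 4.32, and 6h replicate 2, with a sum of 519, had a Mest value of 10.6. The library of 6h replicate 2 had an adrenal cortex sum of 2599, against 2.47 to 252 in the other 11. However, 4 of the 11 adrenal markers (Cyp11b1, Cyp11b2, Cyp21a1 and Mc2r) were at 0 in every library. That library held both 6h reads of Dlk1 and the highest deposited Ndn value (44.3). Day1 replicate 2, with an adrenal sum of 72.1, had a deposited Ndn value of 42.3. As plain CPM, Ndn was 22.9 in 6h replicate 2 and 120 in Day1 replicate 2. Summed values of the other lists were, at 6h, Day1 and Day7 in turn, 29.2 to 1805, 141 to 530 and 1008 to 2248 for endothelial markers, 6.06 to 276, 2151 to 6998 and 225 to 31036 for hepatocyte genes, 2.65 to 72.7, 20.3 to 83.3 and 13.3 to 76.9 for skeletal muscle, and 129 to 2140, 400 to 607 and 1811 to 3628 for immune markers.

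**Figure D5:**
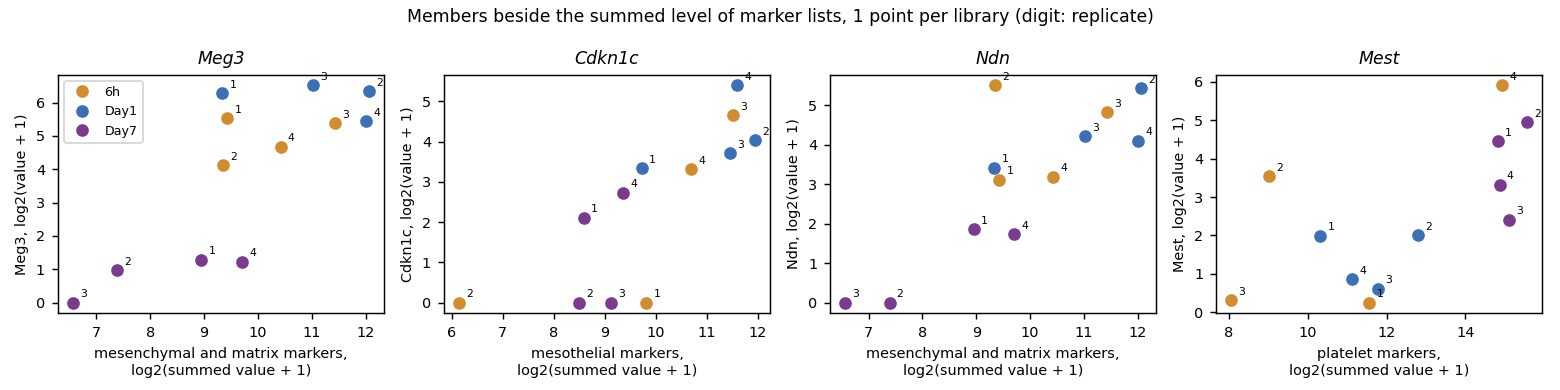
Level of 4 members (vertical, log2 of value + 1) against the summed value of a marker list (horizontal, log2 of sum + 1), with 1 point per library, coloured by time and marked with its replicate number. Meg3 is lowest in the Day7 libraries (0 to 1.44), of which 3 also have the lowest mesenchymal sums, and Mest is highest in 6h replicate 4 (59.2), which shares the high platelet sums of the Day7 libraries, among them Day7 replicate 3 with a Mest value of 4.32.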

How the data were processed

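RNA of iChip-enriched blood was sequenced in 12 libraries, 4 at each of 6h, Day1 and Day7, grouped by their titles. The submitters' processing notes name STAR 2.7.10, HTSeq 2.0.1 and mm9, but the annotation, strand setting and scaling step are not given in the sources at hand. The authors deposited 1 table of scaled signal values, which they call CPM, but its columns sum to 351981 to 5611150, so it is not plain CPM. Values came out as whole multiples of the value of 1 read (100% within 0.01 reads), which gave back the read counts and totals of 5098395 to 12379041.

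Deposited values were tested as log2(value + 1) with limma 3.58.1 (trended variance, R 4.3.3) over all 12 libraries with time as the sole factor, for the 11211 genes that reached 1 in 4 or more libraries, with Benjamini-Hochberg adjustment over all of them and a threshold of 0.05. A fold on this scale understates changes of low genes. Members below the filter were compared by an exact two-sided permutation test. Intervals of log2 differences come from the limma fit and measure the spread between libraries. Floors of 3 reads, and the fold bounds built on them, cover counting error only. edgeR 4.0.16 and DESeq2 1.42.0 on the recovered reads, other pseudocounts, filters and scalings, a replicate block, a Y-linked term and each library left out were alternatives. The fits were tested on simulated data. No pairing by replicate number was seen: deviations of same-numbered libraries correlated at -0.231 to 0.125, which cannot exclude a pairing. The members, lists, tests and alternatives were chosen with earlier results of these data known. Named genes are the 10 members, the 8 (Meg3) or 3 genes with the highest correlation to each tested member, and up to 4 called genes per pathway list; other genes named as neighbours or markers were chosen after their values were seen. Promoter windows come from RefSeq GRCm38.p6, and no coordinates were moved between builds.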

Additional observations from a re-analysis of the deposited data

Results flagged for a closer look

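In 29 groups of 4 libraries with at least 1 value above 0, 9 had a library farther from its group than Dixon's 95% critical value for 4 values allows. Among groups of continuous values chance flags about 1 in 20, but that share does not apply to 7 of the 9, where the other 3 libraries were at 0 and any library with a read meets the criterion. All 9 are single libraries with more reads than the rest of their group, and 8 of them concern members below the filter on low values.

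At 6h these were Dlk1 in replicate 2 (0.757 deposited units), H19 in replicate 4 (3.90) and Plagl1 in replicate 3 (1.21). At Day1 it was Igf2 in replicate 2 (1.51). At Day7 they were Rian in replicate 1 (0.0688), H19 in replicate 1 (1.38), Igf2 in replicate 2 (0.191), Peg3 in replicate 1 (1.31) and Plagl1 in replicate 1 (0.0688). Day7 replicate 1 carries 4 of the 9, and its value of 1 read (0.0688) is the smallest of the Day7 libraries, so the entries at 0.0688 are single reads. The H19 value in 6h replicate 4 rests on 65 reads and the Igf2 value in Day1 replicate 2 on 48.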

How the results depend on the processing

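Meg3 was lower at Day7 than at 6h in every fit run, with a log2 difference of -4.33 to -3.77 when 1 library was left out, and was called in 11 of those 12; the 3 fits without a call stand beside the result above. Members called there numbered 1, against 0 with a pseudocount of 4 or scaled to all reads, 2 with a mean of at least 10 or DESeq2, and 0 to 2 with a library left out. Genes called in Day7 versus 6h numbered 99, against 5 (pseudocount of 4), 13 (no filter), 0 (all reads), 38 (reads outside haemoglobin), 1060 (DESeq2), 156 (replicate block) and 3 to 695 with a library left out. In Day1 versus 6h they numbered 19, against 0 (pseudocount of 4), 0 (no filter), 7 (mean of at least 10), 9 (TMM), 1270 (all reads), 262 (reads outside haemoglobin), 9 (edgeR), 193 (DESeq2), 45 (replicate block), 2 (Y-linked term), 4 (6h replicate 1 and Day7 replicate 3 left out) and 2 to 64 with a library left out. In Day7 versus Day1 they numbered 648, against 57 (no filter), 4063 (all reads), 3716 (reads outside haemoglobin), 1 (edgeR), 1766 (DESeq2), 0 (Y-linked term), 416 (the same pair of libraries left out) and 3 to 1185; members past the threshold numbered 2, against 1 (no filter), 4 (both scalings), 0 (edgeR and Y-linked term) and 1 to 2. The causes were not tested. Scaling to all reads moved the median of all genes to 1.55, -0.20 and -1.76 in Day1 versus 6h, Day7 versus 6h and Day7 versus Day1, and scaling to reads outside haemoglobin to 1.37, -0.36 and -1.78.

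Signs changed for uncalled members. Ndn in Day1 versus 6h was -0.29 (edgeR), -0.33 (DESeq2), -0.21 (the pair of libraries left out) and -0.25 to 0.58 with a library left out. Mest was -1.89 to 0.0022 with a library left out in Day1 versus 6h, and -0.061 (edgeR) and -0.31 (DESeq2) in Day7 versus 6h. In Day7 versus 6h, Cdkn1c was 0.58 with the Y-linked term and -1.45 to 0.10 with a library left out, and Peg3 was -0.61 to 0.040. The replicate block, used although no pairing by number was seen, left Meg3 called in Day7 versus 6h (limma adjusted p = 0.0130) with genes called as given above. Depth limits Rian, Dlk1, H19, Igf2 and Plagl1, where 3 reads are worth 0.0942 to 1.85 deposited units.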
